A study of Homo sapiens with 3 samples.

Results

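The core circadian clock was described through 10 genes: the repressors PER1, PER2, PER3, CRY1 and CRY2, the activators CLOCK and BMAL1 (ARNTL), the nuclear receptors NR1D1 and NR1D2, and the output factor DBP. They were chosen by name, and the choice was made with the difference of PER1 between the LOXL2 arrays already known, so all values are given as descriptions. Of the 10 genes, 9 had a probe set assigned to that gene alone, with 25 such probe sets in all, out of 18132 genes on 44988 probe sets. The cells were KYSE150, a human cell line established from a squamous cell carcinoma of the esophagus. They overexpressed wild-type LOXL2, a lysyl oxidase family amine oxidase, or its splice form LOXL2 Δe13, or carried an empty vector. Each of these 3 groups had 1 PrimeView array, so no spread between cultures, no test and no p-value could be had, and culture and group cannot be told apart. Whether the cells were clones or pools, the time of harvest, and any serum treatment or synchronisation are not given in the sources used here.

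In the circadian clock, CLOCK and BMAL1 bind as a pair to E-box sequences and switch on the PER and CRY genes, whose proteins return to the nucleus and repress that pair. NR1D1 and NR1D2 (REV-ERB alpha and beta) form a second loop by repressing BMAL1 through RORE sequences, and DBP carries the rhythm to further genes through D-box sequences. Most cells carry such a clock, and cells of an unsynchronised culture run at different phases, so RNA from a whole culture averages over them. PER1 is also known as a gene that responds within a short time to cAMP, serum and glucocorticoid hormones.

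The wild-type LOXL2 array stood lowest for PER1 and DBP and highest for CRY1, while CLOCK and CRY2 differed little among the arrays. BMAL1 was slightly higher in the wild-type array on both of its probe sets above the floor. PER1 was 1.60-fold lower with wild-type LOXL2 than with the empty vector, and close to the empty vector with LOXL2 Δe13. CRY1 was higher in both LOXL2 arrays, 1.59-fold with the wild type and 1.34-fold with Δe13. DBP was lower in both, 1.46-fold with the wild type and 1.19-fold with Δe13. In RNA from a whole culture, fewer cells that express a gene and less RNA per cell cannot be told apart.

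Values are log2 RMA signals, and a difference is that of 2 log2 signals. Each gene took the values of whichever of its probe sets had the highest mean, and it was compared where the higher of its 2 signals reached 5.94, the median of all values and here called the floor. With Δe13 minus the empty vector, 0 of 9 clock genes were higher and 0 lower by 1.5-fold or more, against 0.359% and 0.303% of all 10878 genes compared. With the wild type minus the empty vector, CRY1 was the 1 of 9 at least 1.5-fold higher and PER1 the 1 at least 1.5-fold lower, against 2.02% and 0.919% of 10881 genes. With Δe13 minus the wild type, PER1 was the 1 of 8 at least 1.5-fold higher and 0 were as much lower, against 0.184% and 0.12% of 10847 genes. None of them reached 2-fold, a difference seen in 0.046% of genes upward and 0.00919% downward for Δe13 minus the empty vector, in 0.193% and 0.101% for the wild type minus the empty vector, and in 0.0184% and 0.00922% for Δe13 minus the wild type. At the smaller ratio of 5 to 4, CRY1 was also higher with Δe13 (3.39% of genes were higher and 2.97% lower by that much). PER3 and DBP were then also lower with the wild type (10.7% higher and 7.13% lower). PER3 entered that comparison through its empty vector signal alone. PER1 alone differed between the LOXL2 arrays (2.06% higher and 2.79% lower). These are counts of single genes in a list that was drawn up with the PER1 value known, and nothing is read from their share.

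As a group the clock genes had no common direction. Their median difference was -0.06 for Δe13 minus the empty vector, with 3 higher and 6 lower. All genes had a median of -0.01 there, with 48.2% higher and 51.5% lower. For the wild type minus the empty vector the clock gene median was 0.05, with 5 higher and 4 lower. All genes had 0, with 49.9% higher and 49.9% lower. For Δe13 minus the wild type the clock gene median was -0.11, with 3 higher and 5 lower. All genes had -0.02, with 45.2% higher and 54.5% lower. PER3, counted as lower in both comparisons with the empty vector, reached the floor through the empty vector array alone (6.08). The first pair of comparisons shares the empty vector array, and the last shares an array with each of them. The only repeat measurement was that between probe sets of the same gene, whose pooled standard deviation was 0.13, 0.16 and 0.13 (log2) in the same order. Cultures add a spread of their own, which it leaves out.

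**Figure D1:**
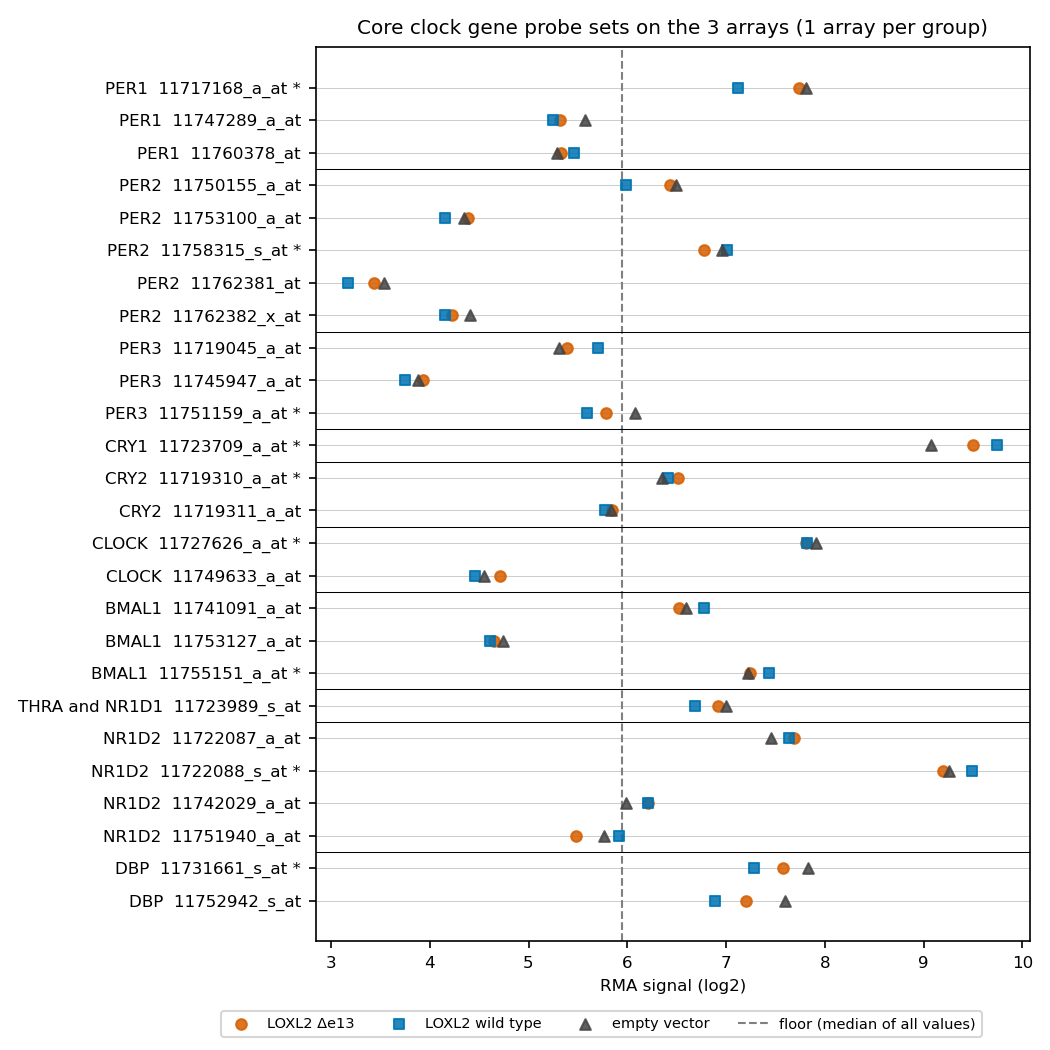
RMA signal (log2, horizontal axis) of each clock gene probe set (rows) on the LOXL2 Δe13 array (circles), the wild-type LOXL2 array (squares) and the empty vector array (triangles). Asterisks mark the probe set that stands for a gene and the dashed line the floor of 5.94; the squares lie lowest for PER1 (7.12) and for both DBP probe sets (7.28 and 6.89), and highest for CRY1 (9.75).

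The start regions of the genes with the largest differences are printed here because clock factors act through short sequences in such regions. Each run gives the 250 bases before the start site annotated in RefSeq (GRCh38.p14), read 5′ to 3′ on the strand of the gene. Capitals mark matches, on either strand, to the motifs searched. PER1 is shown from chr17:8152405-8152654 (minus strand), CRY1 from chr12:107093550-107093799 (minus strand) and DBP from chr19:48637380-48637629 (minus strand). BHLHE40, whose values lay closest to those of PER1, is shown from chr3:4979187-4979436 (plus strand).
PER1: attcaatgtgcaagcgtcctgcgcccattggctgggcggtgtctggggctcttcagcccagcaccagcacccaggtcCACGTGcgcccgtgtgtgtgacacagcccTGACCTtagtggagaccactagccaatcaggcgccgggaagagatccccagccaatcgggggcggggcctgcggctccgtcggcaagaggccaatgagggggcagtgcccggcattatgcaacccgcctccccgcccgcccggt
BHLHE40: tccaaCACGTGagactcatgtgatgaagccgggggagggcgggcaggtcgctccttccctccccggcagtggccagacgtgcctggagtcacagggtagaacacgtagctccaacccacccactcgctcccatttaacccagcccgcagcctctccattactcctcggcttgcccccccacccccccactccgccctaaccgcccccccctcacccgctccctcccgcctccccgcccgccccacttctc
CRY1: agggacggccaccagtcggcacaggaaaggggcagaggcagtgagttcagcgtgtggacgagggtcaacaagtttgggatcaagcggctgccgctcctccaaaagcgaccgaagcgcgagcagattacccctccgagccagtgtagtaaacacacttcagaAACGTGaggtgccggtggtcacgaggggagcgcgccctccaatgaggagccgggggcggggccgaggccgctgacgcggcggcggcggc
DBP: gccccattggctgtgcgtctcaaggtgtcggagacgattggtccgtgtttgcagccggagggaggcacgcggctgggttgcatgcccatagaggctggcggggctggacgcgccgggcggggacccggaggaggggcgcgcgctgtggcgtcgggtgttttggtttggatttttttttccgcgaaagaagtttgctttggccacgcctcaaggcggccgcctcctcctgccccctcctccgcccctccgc

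The motifs were the E-box CACGTG, the E-prime box CACGTT, the D-box TTANGTAA, the RORE core AGGTCA and the cAMP response element TGACGTCA. They were searched on both strands of windows from 250 bases before to 50 after the start, and none of their matches in these windows overlapped. PER1 held an E-box at -173 and, on the opposite strand, an RORE core at -144. BHLHE40 held an E-box at -245, and CRY1 an E-prime box at -89. The DBP window held none of these letters, which says nothing of other regions of the gene. All 10 clock genes had a window, 15 in all because some had alternative starts. An E-box was in 2 of the 15 windows (PER1 and NR1D2), against 7.26% of all 35116 windows. An E-prime box was in 5 of the 15 (PER2, CRY1, CRY2, CLOCK and NR1D1), against 5.34%. A D-box was in 3 of the 15 (PER2, PER3 and NR1D2), against 2.18%. An RORE core was in 4 of the 15 (PER1, BMAL1 and both of CRY2), against 13.8%, and the full cAMP response element was in 0 of the 15, against 1.85%. A match is a description of the letters and not of binding.

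**Figure D2:**
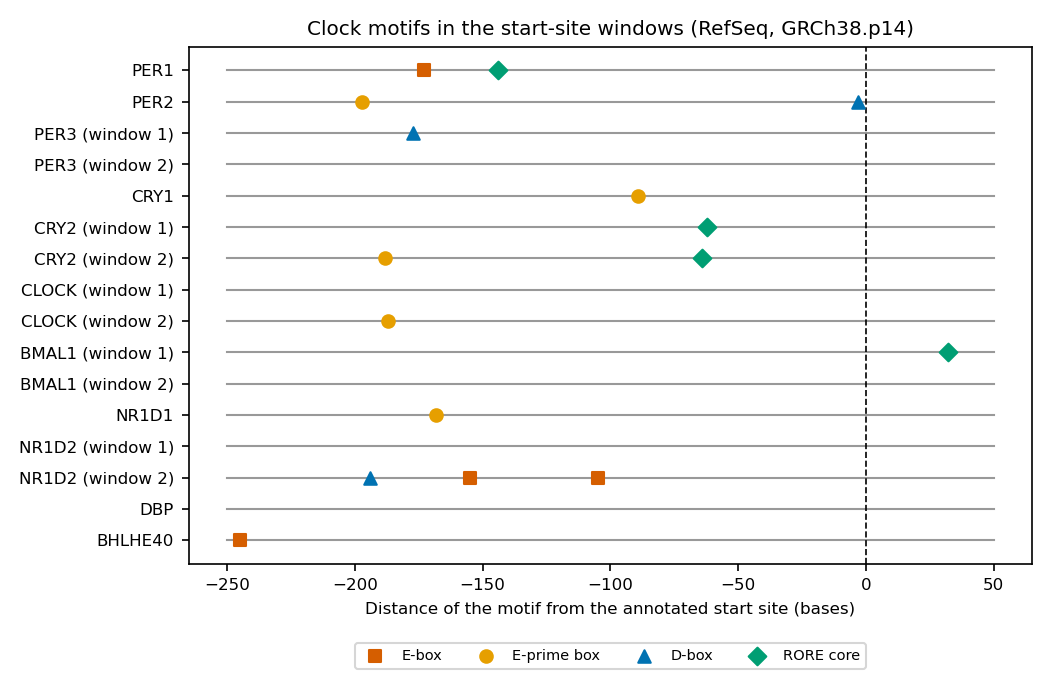
Position of each motif match (symbols) relative to the annotated start site (dashed line, in bases, horizontal axis) in the RefSeq start windows of the 10 clock genes and of BHLHE40 (rows). PER1 has an E-box at -173, NR1D2 has E-boxes at -155 and -105 in its second window, and the rows of DBP, CLOCK window 1, BMAL1 window 2, NR1D2 window 1 and PER3 window 2 hold no match.

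Among the repressors, PER1 was low in a single array. PER1 and its relatives PER2 and PER3 encode the PERIOD proteins, which carry the CRY proteins into the nucleus. The PER1 signal on probe set 11717168_a_at was 7.74 in the Δe13 array, 7.12 in the wild-type array and 7.81 in the empty vector array. The wild-type array alone was low, and the other arrays lay 0.06 apart. The difference was -0.68 for the wild type minus the empty vector, a value reached or passed downward by 0.441% of genes. It was 0.62 for Δe13 minus the wild type, a 1.54-fold difference reached or passed upward by 13 of 10847 genes. The other PER1 probe sets, 11747289_a_at and 11760378_at, lay below the floor on every array, between 5.25 and 5.58. They differed by -0.33 and 0.17 for the wild type minus the empty vector, so the PER1 values rest on a single probe set. The array's own background probe sets also differed: the 9 background probe sets with 17 or more G or C bases were lower in the wild-type array than in the empty vector array, by a median of -0.23 (from -0.29 to -0.18), and by -0.06 in the Δe13 array. The direction is that of PER1 and DBP and opposite to that of CRY1, and its part in these differences was not tested. The 14 background probe sets with fewer G or C bases differed by a median of -0.01 and 0.001.

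PER2 gave opposite directions on its brighter probe sets wherever the wild-type array was compared. On 11758315_s_at, which stands for the gene, the signals were 6.77 with Δe13, 7.01 with wild-type LOXL2 and 6.96 with the vector alone. On 11750155_a_at they were 6.43, 5.99 and 6.49 in the same order, so here the wild-type array was low, as for PER1. The wild type minus the empty vector was thus 0.05 on the first and -0.50 on the second, and Δe13 minus the wild type -0.23 and 0.44. The suffix _s_at marks probes that may match transcripts of more than 1 gene in the naming of the array's maker. Both DBP probe sets, that which stands for NR1D2 and some of those of the other genes below carry it as well. The remaining 3 PER2 probe sets stayed below the floor, and on each of them the wild-type array gave the lowest signal, with differences from the empty vector of -0.19, -0.36 and -0.25. Both brighter probe sets were lower with Δe13 than with the empty vector, at -0.19 and -0.06. No direction is given for PER2 in the wild-type array.

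PER3 was near the floor. Its probe set 11751159_a_at gave 5.78 with Δe13, 5.59 with wild-type LOXL2 and 6.08 with the vector alone, of which the last alone was above the floor. The differences from the empty vector were -0.30 and -0.49, and PER3 entered these comparisons through the empty vector signal alone. It did not enter Δe13 minus the wild type, where its difference was 0.19. Of its other probe sets, both below the floor, 11719045_a_at went the other way, at 0.40 for the wild type minus the empty vector.

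CRY1 encodes a cryptochrome, a strong repressor of CLOCK and BMAL1. Its single probe set 11723709_a_at gave 9.497 with Δe13, 9.75 with wild-type LOXL2 and 9.07 with the vector alone. The empty vector array was the lowest and both LOXL2 arrays lay above it, by 0.42 with Δe13 and 0.67 with wild-type LOXL2. A difference at least as high was seen in 1.42% of genes with Δe13 and in 1.14% with wild-type LOXL2. Between the LOXL2 arrays CRY1 was lower in Δe13 by a difference of -0.25. CRY2, the other cryptochrome, gave 6.51, 6.41 and 6.35 on probe set 11719310_a_at, in the order Δe13, wild type and empty vector. Its differences of 0.16 and 0.06 from the empty vector were far smaller than those of CRY1, and its other probe set lay below the floor at 5.77 to 5.84.

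Of the activators, CLOCK differed little and BMAL1 was slightly higher in the wild-type array. CLOCK gave 7.80 with Δe13, 7.82 with wild-type LOXL2 and 7.92 with the vector alone on probe set 11727626_a_at. Its differences of -0.11, -0.09 and -0.02 were within the standard deviation between probe sets of the same gene. Its other probe set, 11749633_a_at, lay below the floor at 4.71, 4.46 and 4.55. BMAL1 gave 7.24, 7.44 and 7.22 on 11755151_a_at and 6.52, 6.77 and 6.60 on 11741091_a_at. These 2 BMAL1 probe sets were thus highest in the wild-type array, by 0.22 and 0.17 over the empty vector and by 0.20 and 0.25 over Δe13. Each of these was larger than the standard deviation between probe sets of the same gene, which leaves out the spread between cultures. A difference from the empty vector at least as high as 0.22 was seen in 18.8% of genes. The third BMAL1 probe set, 11753127_a_at, lay below the floor at 4.65, 4.61 and 4.74, with the wild-type array lowest by -0.13 against the empty vector.

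The REV-ERB receptors were read with unequal certainty. NR1D1 had no probe set of its own, and the probe set that reads it, 11723989_s_at, is assigned to THRA as well. These genes overlap by 1075 bases on opposite strands in RefSeq, and the transcript listed for the probe set is that of NR1D1. It gave 6.91 with Δe13, 6.69 with wild-type LOXL2 and 6.999 with the vector alone, with the wild-type array lowest by -0.31 against the empty vector. THRA, a thyroid hormone receptor gene, had 8 probe sets of its own, of which 4 were above the floor. These 4 were lower in the wild-type array than in the empty vector array, by -0.17 to -0.46. The dimmest of them reached the floor through the empty vector array alone, at 6.03 against 5.77 in the wild-type array. Its lower direction was thus favoured by the floor. As THRA was lower too, the shared value is assigned to neither gene.

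NR1D2 was slightly higher in the wild-type array than in the empty vector array on all 3 of its probe sets above the floor. Its probe set 11722088_s_at gave 9.20 with Δe13, 9.49 with wild-type LOXL2 and 9.26 with the vector alone, a difference of 0.23 for the wild type. On 11722087_a_at the signals were 7.69, 7.64 and 7.45, and on 11742029_a_at 6.21, 6.21 and 5.98, with wild-type differences of 0.19 and 0.23. Between Δe13 and the empty vector the probe sets disagreed, at -0.06 on the first but 0.24 and 0.23 on the others. The remaining probe set, 11751940_a_at, lay below the floor at 5.48, 5.92 and 5.77. No direction is given for NR1D2 with Δe13.

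DBP, a transcription factor of the PAR bZIP family whose gene is a direct target of CLOCK and BMAL1, was lower in both LOXL2 arrays on both probe sets. Probe set 11731661_s_at gave 7.58 with Δe13, 7.28 with wild-type LOXL2 and 7.83 with the vector alone. Probe set 11752942_s_at gave 7.20, 6.89 and 7.60. The order was the same on both, with the wild-type array lowest and the empty vector array highest. The wild type minus the empty vector was -0.55 on the first and -0.71 on the second, and Δe13 minus the empty vector -0.25 and -0.40. On the first probe set, which stands for the gene, DBP fell just short of 1.5-fold, and 1.19% of genes were at least as low. Δe13 minus the wild type was 0.29 and 0.31, and 2.73% of genes were at least as high as 0.29. The part of the lower GC-rich background of the wild-type array in the DBP values was not tested.

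**Figure D3:**
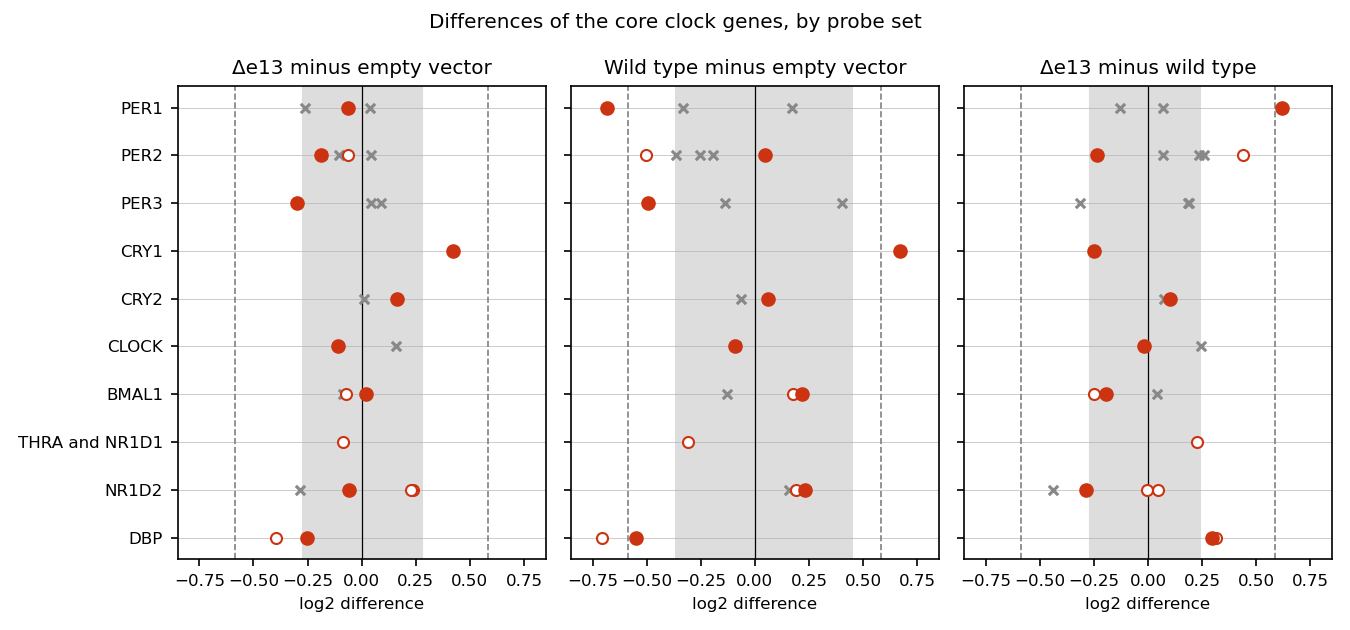
Difference in log2 signal (horizontal axis) of each clock gene probe set (rows by gene) in the 3 comparisons, with filled circles for the probe set that stands for a gene, open circles for others above the floor and crosses for those below it. Dashed lines mark 1.5-fold and the grey band the range between the 5th and the 95th percentile of all genes (from -0.36 to 0.45 for the wild type minus the empty vector); PER1 at -0.68 and CRY1 at 0.67 lie past the lines there, and DBP lies on either side of the lower line at -0.55 and -0.71.

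The other genes of the clock were taken from lists by role. Of 12 further transcription factors and repressors, 11 had a probe set of their own and 6 were above the floor. Among these 6, the 1 gene at least 1.5-fold apart was BHLHE40 (DEC1), a repressor that binds the same E-boxes as CLOCK and BMAL1. It was that much lower for the wild type minus the empty vector, against 0.919% of all genes lower and 2.02% higher. Its single probe set gave 8.67 with Δe13, 8.12 with wild-type LOXL2 and 8.76 with the vector alone. As for PER1, the wild-type array alone was low, by -0.64 against the empty vector, and Δe13 was 0.54 above it. The related repressor BHLHE41 gave 7.79, 7.85 and 7.84 and so did not share that order. The median of the 6 genes was -0.07, -0.01 and 0.06 in the 3 comparisons.

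The regulators of clock protein stability differed little. Of 23 kinases, phosphatases, ubiquitin ligases and related enzymes, 19 were above the floor and 0 were at least 1.5-fold apart in any comparison. The shares of all genes past it were largest for the wild type minus the empty vector, at 2.02% higher and 0.919% lower. The median difference of the 19 was -0.03 for Δe13 and -0.002 for the wild type against the empty vector. The largest differences were those of USP2, BTRC and PRKAA1. USP2, a deubiquitinase, gave 6.32 with Δe13, 5.97 with wild-type LOXL2 and 6.35 with the vector alone, again with the wild-type array alone low. BTRC, an F-box protein that marks PER proteins for degradation, gave 7.08, 7.40 and 7.16. PRKAA1, a catalytic subunit of AMP-activated kinase, which phosphorylates CRY1, gave 8.19, 8.01 and 8.31.

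Cofactors of the clock were mostly higher in the wild-type array, with none at least 1.5-fold, against 2.02% of all genes that much higher. Of the 10 above the floor, 9 were higher with the wild type than with the empty vector, and their median was 0.22 against 0 for all genes, of which 49.9% were higher. With Δe13 7 of 10 were higher, with a median of 0.12 against -0.006 for all genes, of which 48.2% were higher. EP300 and CREBBP, histone acetyltransferases that act with CLOCK and BMAL1, were higher in the wild-type array by 0.53 and 0.53, and in the Δe13 array by 0.29 and 0.35. CUL4A, a scaffold of ubiquitin ligases, was higher by 0.53 and 0.21 in the same order. The kinases and cofactors were not tested against other genes.

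Genes known as clock-controlled outputs split in direction. Of 11 above the floor, KLF10 and KLF11 were at least 1.5-fold higher and TSC22D3 at least 1.5-fold lower with the wild type minus the empty vector. As many as 2.02% of all genes were that much higher there and 0.919% that much lower. KLF10 was at least 1.5-fold higher with Δe13 as well, against 0.359% of all genes higher and 0.303% lower. KLF10, a Krüppel-like repressor, gave 9.22 with Δe13, 9.49 with wild-type LOXL2 and 8.33 with the vector alone. KLF11, its relative, gave 8.02, 8.30 and 7.69 on its only probe set above the floor. Its other probe sets, below the floor, differed by -0.21 and -0.02 for the wild type minus the empty vector. The KLF10 signals and the brighter KLF11 signals share with CRY1 an order in which the empty vector array was lowest and the wild-type array highest. TSC22D3 (GILZ), which glucocorticoids induce, gave 8.44, 8.14 and 8.91, the same order as DBP, and was lower with the wild type on all 3 of its probe sets, by -0.77, -0.41 and -0.86. The remaining 8 outputs above the floor were less than 1.5-fold apart, and the median of all 11 was -0.14 for the wild type and -0.05 for Δe13.

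**Figure D4:**
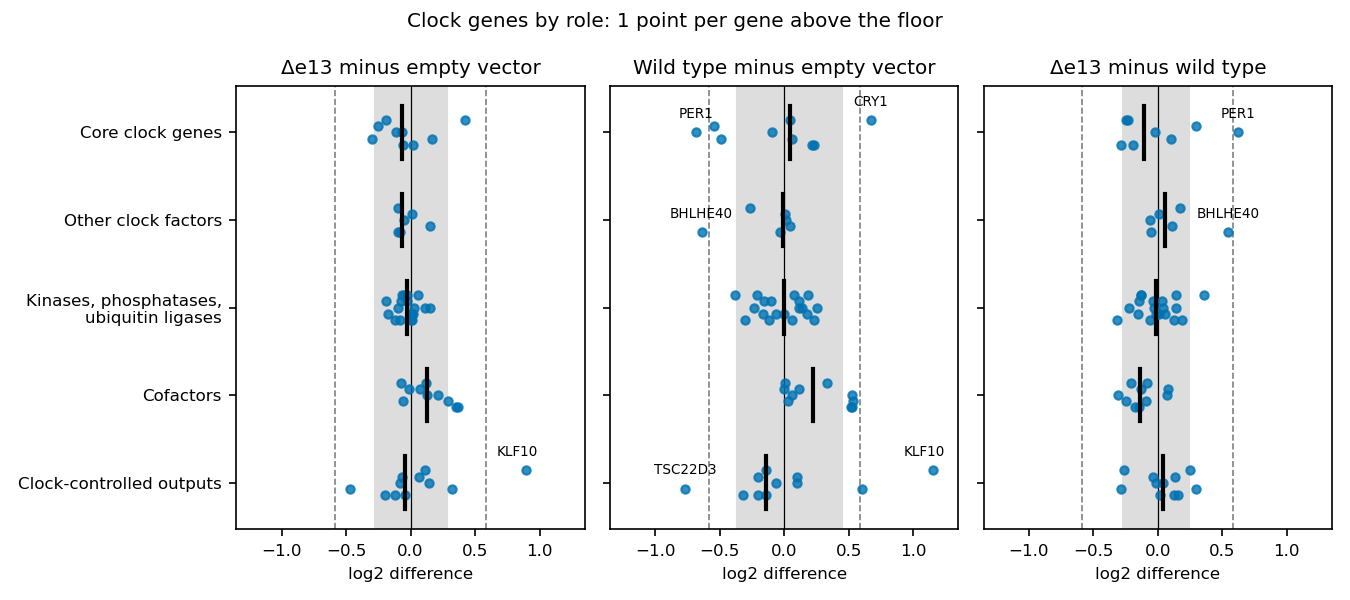
Difference in log2 signal (horizontal axis) of each gene above the floor (points) in 5 lists of clock genes by role (rows), in the 3 comparisons, with a black bar at the median of each list, dashed lines at 1.5-fold and a grey band between the 5th and the 95th percentile of all genes. BHLHE40 lies at -0.64 and KLF10 at 1.15 for the wild type minus the empty vector, and the cofactor median there is 0.22.

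Genes known to respond along with PER1 outside the clock gave mixed directions. Of 10 rapid cAMP and serum targets above the floor, 7 were lower and 3 higher in the wild-type array, with a median of -0.05, where 49.9% of all genes were lower and 49.9% higher. JUNB, an AP-1 factor, was lower at -0.67 and gave 7.99 with Δe13, 7.70 with wild-type LOXL2 and 8.37 with the vector alone. NR4A3, an orphan nuclear receptor, was higher at 1.27 and passed the floor through the wild-type array alone, with signals of 6.36 there and 5.09 in the empty vector array. Of 8 glucocorticoid receptor targets above the floor, 6 were lower and 2 higher with the wild type, beside the same shares of all genes. Their median was -0.07, and TSC22D3, which is also among the clock outputs, was the 1 at least 1.5-fold apart. It was lower, against 0.919% of all genes that much lower and 2.02% that much higher. FKBP5, a common marker of that hormone response chosen here after its value was seen, differed by -0.04.

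Hypoxia genes were included because the factors of both systems are built alike. ARNT, a partner of the hypoxia factors and a relative of BMAL1, gave 6.54 with Δe13, 6.77 with wild-type LOXL2 and 6.63 with the vector alone. Of 10 genes above the floor, 8 were lower in the wild-type array, with a median of -0.25, against 0 for all genes, of which 49.9% were lower. In the Δe13 array 5 were higher and 5 lower than in the empty vector array, with a median of -0.006. The shares of all genes were 48.2% higher and 51.5% lower. ADM gave 12.46, 11.83 and 12.60 in the order Δe13, wild type and empty vector, and ANKRD37 10.36, 9.12 and 9.98. BNIP3 gave 9.72, 9.10 and 9.38. In all of these the wild-type array was lowest, as for PER1, and Δe13 minus the wild type was 0.64, 1.24 and 0.63.

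The genes whose 3 values lay closest to those of PER1 were found among 10953 genes with a signal above the floor, by the Euclidean distance between values centred on each gene's mean. BHLHE40 was the closest, at a distance of 0.053 (log2). DDIT4, a stress-induced inhibitor of mTOR signalling, followed at 0.056, then EGFR, the epidermal growth factor receptor, at 0.058, ADM, which encodes adrenomedullin, at 0.071 and MYEOV at 0.105. All 5 were lowest in the wild-type array, with differences from the empty vector of -0.64, -0.66, -0.67, -0.78 and -0.69. With Δe13 they were lower than with the empty vector by less, at -0.10, -0.12, -0.13, -0.14 and -0.19. For CRY1 the closest were TSC22D1 (0.010), CHST3 (0.013), ZNF37A (0.013), SRPRB (0.013) and AKIRIN1 (0.021), with wild-type differences between 0.65 and 0.69. Over 3 arrays many genes can take the same order, so closeness here describes these arrays alone. CRY1 and PER1 ran in opposite directions in the wild-type array.

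**Figure D5:**
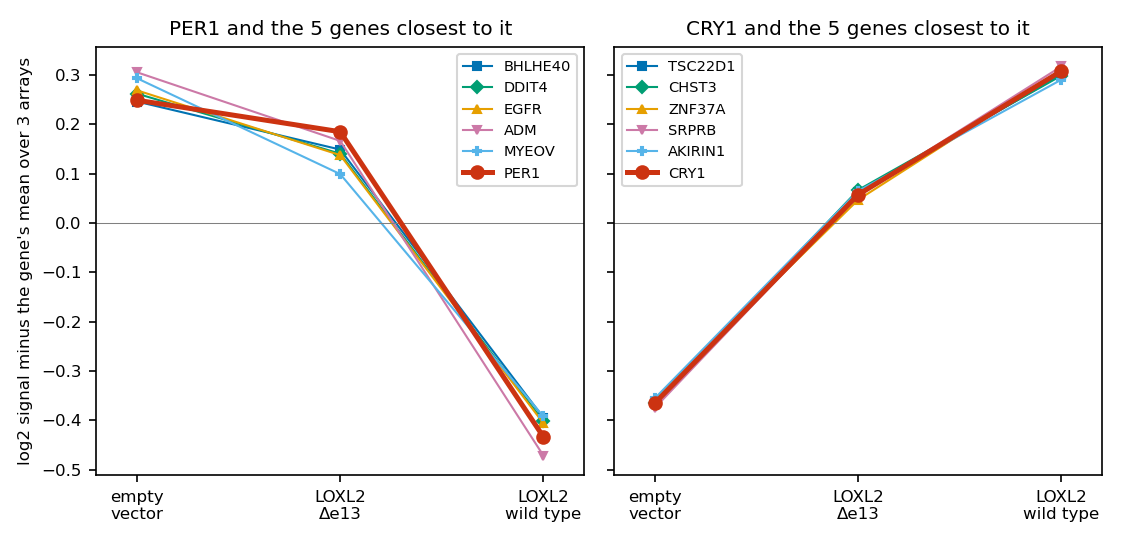
Signal minus each gene's mean over the 3 arrays (log2, vertical axis) for PER1 (left, thick line) and CRY1 (right, thick line) with the 5 genes closest to each (thin lines), on 1 array per group; lines join arrays only to guide the eye. PER1 and its neighbours are lowest in the wild-type LOXL2 array and slightly lower with Δe13 than with the empty vector. CRY1 and its neighbours step up from the empty vector to Δe13 to the wild type.

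LOXL2 itself was read by 4 probe sets, which did not all go the same way. Both LOXL2 arrays were far above the empty vector array on 11718833_a_at (10.77 with Δe13, 10.22 with wild-type LOXL2, 5.06 with the vector alone) and on 11718834_at (7.94, 8.07 and 5.38). Probe set 11751288_a_at gave 14.05 in the wild-type array, against 7.41 with Δe13 and 7.46 with the vector alone. Probe set 11718832_a_at gave 8.73, 8.32 and 8.81 and was highest in the empty vector array, with -0.48 for the wild type minus the empty vector. Which stretch of the transcript each of them reads was not checked.

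Squamous markers stood well above the floor, with a median of 10.3 over 11 genes in the empty vector array, among them KRT5 at 11.62 and CDH1 at 11.91. They were lower in both LOXL2 arrays for 8 of 11 genes, where 51.5% of all genes were lower with Δe13 and 49.9% with wild-type LOXL2. SOX2, 1 of the 8, reached the floor through the empty vector array alone (6.06). KRT15 differed by -0.83 with Δe13 and -0.9999 with wild-type LOXL2, DSC3 by -0.65 and -0.53, and KRT14 by -0.45 and -0.67. The other DSC3 probe sets above the floor differed by less, at -0.11 and -0.52 with Δe13 and -0.30 and -0.33 with wild-type LOXL2. Of 8 fibroblast markers 1 was above the floor in each array (PDGFRB, at 6.04 to 6.17), and of 5 leukocyte markers 1 (CD68, at 8.44 to 8.97, while PTPRC lay at 2.83 to 3.05). Of 4 endothelial markers PECAM1 alone passed, on the Δe13 array at 6.22. The part of these markers in the clock gene values was not tested.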

How the data were processed

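Total RNA from KYSE150 cells was labelled with biotin and hybridised to PrimeView arrays, per the labels' protocols. Per the processing notes of the submitters, the authors summarised them with RMA, for which these notes name no version. The deposited table spans 2.07 to 14.56, a log2 scale that no label states. RMA brings the arrays to a common distribution, which hides any shift shared by most genes. Of 49395 probe sets 102 were controls; 44988 of the others had 1 symbol in the platform annotation, updated through Entrez IDs in RefSeq (GRCh38.p14), 1832 had several and 2473 were not listed. Arrays hold no counts, and their number limits the precision.

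A gene took the probe set with the highest mean. Comparisons took in genes for which at least 1 of the 2 signals was 5.94 or more. Differences were counted at 1.5-fold, with no test. The members, gene lists and rules were chosen with earlier results of these data known. Named genes were all members, list genes at least 1.5-fold apart in any comparison or else the 3 furthest apart, and the 5 genes closest to each member at least 1.5-fold apart. Other genes named, namely THRA, BHLHE41, ARNT, FKBP5, LOXL2 and the markers given as examples, were chosen after their values were seen. Alternatives were the median over probe sets, other floors, 3 scalings and other folds. The counting was tested on simulated data. Python 3.11.15 with numpy 2.4.6, pandas 2.3.3, statsmodels 0.14.6 and matplotlib 3.10.9 was used.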

Additional observations from a re-analysis of the deposited data

How the results depend on the processing

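With 1 array per group there was no replicate to leave out. No paired analysis was possible because each group has 1 array and the result comes from no test. Centring the arrays, quantile normalization and loess on the mean signal (span 0.3) kept CRY1 and PER1 as the members at least 1.5-fold apart: PER1 ran from -0.70 to -0.66 and CRY1 from 0.64 to 0.69 for the wild type minus the empty vector under the alternatives that gave a value. With probe sets of a gene combined by their median, PER1, PER2 and PER3 fell below the floor and 6 members were compared. Then 0 members were at least 1.5-fold higher for Δe13 minus the wild type. DBP, at -0.63, was the 1 member at least 1.5-fold lower for the wild type minus the empty vector. The median of these 6 members for Δe13 minus the wild type was 0.054. With the floor at the 75th percentile (7.86) 3 members were left for the wild type and 2 for Δe13 minus the wild type; PER1 was not compared, so 0 members were higher in the latter and 0 lower in the former, and the medians were 0.23 in the former and -0.27 in the latter. At 2-fold, 0 members were higher or lower with the wild type and 0 higher for Δe13 minus the wild type. At a ratio of 5 to 4, 1 member (CRY1) was higher with Δe13 than with the empty vector, where 3.39% of genes passed. Then 3 (PER1, PER3 and DBP) were lower with the wild type than with the empty vector, where 7.13% passed. Of these, PER3 reached the floor through the empty vector array alone. The other 40 counts were within 1.5 times their first value, and the other 15 medians moved by less than the standard deviation between probe sets. Of the single members' differences 127 moved by less than that. The other 3 moved with probe sets combined by their median: CLOCK from -0.11 to 0.02 and NR1D2 from -0.06 to 0.23 for Δe13 minus the empty vector, and NR1D2 from -0.29 to 0.02 for Δe13 minus the wild type. PER3, CRY2 and most dimmer probe sets lay near or below the floor, and how far background enters their values was not tested.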
